A study of Homo sapiens with 20 samples.

Results

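RNA of THLE-3 cells in 2.0 mM leucine was compared between 480 min and 0 min. The 4 arrays of this comparison are 2 titled as high leucine at 480 min and 2 titled as high leucine at 0 min, out of 20 arrays in the series. Each pair holds 1 array of a first experiment and 1 of a second experiment, and the comparison was paired by experiment. THLE-3 cells are an established line derived from adult liver epithelium that carries the large T antigen of SV40, so its cell cycle control is not that of normal liver. All 20 arrays come from this line, in 0.1 mM (low) or 2.0 mM (high) leucine at 0, 30, 60, 120 or 480 min, and each of the 10 groups has 2 arrays. The series asked how leucine supply acts on gene expression in cultured human liver cells. Per the labels, the only difference between the 480 and 0 min arrays of 2.0 mM is time. What medium the cells had before 0 min, and whether an experiment is a separate culture, is not stated. The p-values therefore speak only of the spread among these arrays, and that spread may be technical.

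Leucine is an essential branched-chain amino acid. When amino acids run short, uncharged transfer RNAs activate the kinase GCN2, translation slows in general, and the transcription factor ATF4 is made. ATF4 then drives genes for amino acid synthesis, uptake and tRNA charging, which is called the amino acid response. When leucine is plentiful, the kinase complex mTORC1 is active at the lysosome and favours protein, lipid and nucleotide synthesis. Sterol enzymes are driven by the transcription factor SREBP2, and cytosolic heat shock proteins by HSF1.

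The mean intensity of the arrays, in arbitrary units, was 774.8 and 806.7 at 0 min and 797.1 and 854.1 at 480 min in 2.0 mM leucine, first and second experiment in this order here and below. The lowest mean of the 10 arrays of the second experiment belonged to the 2.0 mM array at 0 min. Among the 4 arrays compared, those of the same experiment correlated at 0.970 or above and those of different experiments at 0.936 or below. As to the labelled cell type, 0 of 21 hepatocyte marker genes lay above the 90th percentile of all probe sets, against 4 of 13 biliary and epithelial and 7 of 15 stellate and fibroblast markers, and 0 of 13 endothelial and blood cell markers. The summed intensity of the hepatocyte markers was 8644 to 9190 at 0 min and 8345 to 8849 at 480 min, and that of the biliary and epithelial markers 15065 to 23488 and 17028 to 31153. The stellate and fibroblast sum was 30091 to 33281 at 0 min and 31704 to 35019 at 480 min, and the endothelial and blood cell sum 6673 to 6833 and 6317 to 7348. The ranges of the sums overlapped between the times for all 4 lists. Each range pools both experiments, so this overlap does not show whether a sum changed within an experiment. In such bulk samples, fewer cells of a type and less RNA per cell cannot be told apart.

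From 0 to 480 min in 2.0 mM leucine, 26 of 42 genes of the amino acid response and 11 of 17 cytosolic tRNA synthetases were called lower. Higher calls were made for 10 of 20 genes of cholesterol synthesis and uptake, 9 of 22 cytosolic chaperones and 16 of 34 genes of actin, tubulin and adhesion. The other members of these 3 lists were not called, apart from 1 chaperone that was called lower. A gene stands here for its probe set with the highest mean, and a call is an adjusted p under 0.05 in limma's moderated test, adjusted by Benjamini-Hochberg over all probe sets kept. Of 8280 genes, 1236 were called (14.9%), 638 of them higher (7.71%) and 598 lower (7.22%). Over probe sets, 2032 of 13329 were called (15.2%). All 1236 called genes had the same direction in both experiments, as against 66.7% of all genes. The calls were made on these same arrays, which favours genes whose experiments agree, so this is no separate replication. Most changes were small, with a median of 0.29 for the called rises and -0.25 for the called falls on the log2 scale. A change of at least 1 was reached by 5 called genes in each direction.

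The number of calls depends on how the experiment is treated and on single arrays. 153 genes were called without the experiment as a term (1.85%), 97 higher (1.17%) and 56 lower (0.676%). Of 147 genes called here that were singled out by rank or list, 44 were still called without that term and 103 were not, as is said below for those whose values are given. Leaving out the second-experiment array at 480 min reduced the 2032 probe sets to 745, and leaving out the second-experiment array at 0 min to 912. The split into 1151 higher and 881 lower probe sets became 1569 and 511 on the values as deposited, and 1784 and 470 with median centring. The median change of all genes was -0.03, 0.01 and 0.02 under these scalings.

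ATF4 and several of its known targets were among the called falls. ATF4, the transcription factor of the amino acid response, read 4625 and 4831 at 0 min and 2613 and 2188 at 480 min. Both later arrays lay far below both earlier ones, and the change was -1.03 ± 0.07 on the log2 scale (± is the standard error of the fit, n = 2 arrays per group, adjusted p = 5.1e-07). That is 2.04-fold lower on the scale of intensity plus a pseudocount, which understates the change of weak probe sets. TRIB3, a pseudokinase that ATF4 induces and that restrains it, read 2329 and 3074 and then 1176 and 1236. It had the largest called fall of all genes, at -1.17 ± 0.11 (adjusted p = 1.1e-05). DDIT3, which encodes the stress transcription factor CHOP, read 1316 and 1654 and then 808 and 791, a fall of 0.84 (-0.84 ± 0.10, adjusted p = 7e-05). CEBPG, a dimer partner of ATF4, read 560 and 512 and then 259 and 232 (-0.76 ± 0.10, adjusted p = 0.0002). The values of the 2 times did not overlap for any of these 4 genes. TRIB3 and DDIT3 were no longer called without the experiment as a term (adjusted p = 0.091 and 0.065).

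**Figure D1:**
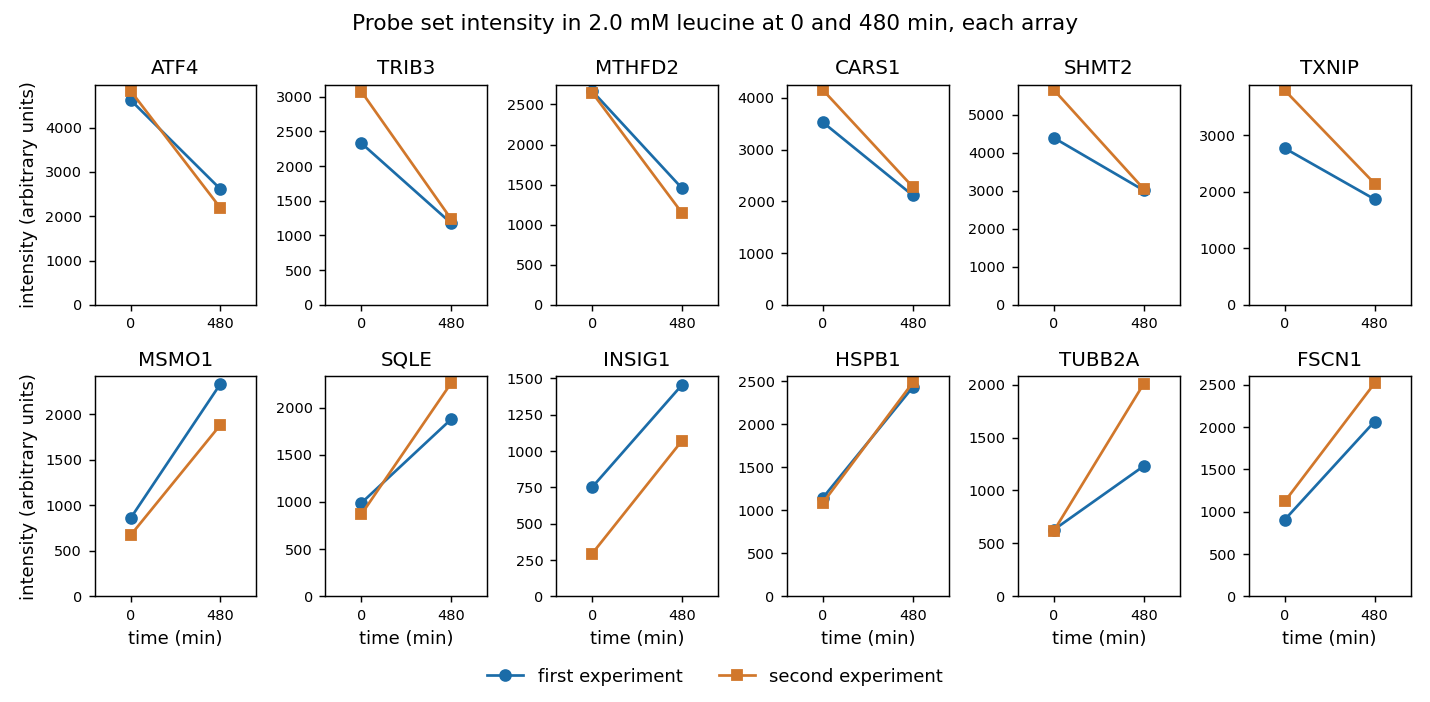
Deposited probe set intensity (vertical axis, arbitrary units, from 0) at 0 and 480 min in 2.0 mM leucine for 12 genes; each line joins the 2 arrays of 1 experiment, blue circles for the first and orange squares for the second. In both experiments the 6 genes of the upper row are lower at 480 min (ATF4 4625 and 4831 to 2613 and 2188) and the 6 of the lower row higher (MSMO1 858 and 671 to 2334 and 1884).

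A known route by which ATF4 acts is a composite DNA element of the form TGATGNAA, bound by ATF4 with a C/EBP partner. RefSeq promoter windows of 250 bases before to 50 after a transcript start (GRCh38.p14) were searched for it on both strands, and 6763 of the 8280 genes had such a window. The element stood in a window of 2.99% of these genes, 5.27% of the genes called lower and 2.77% of those called higher. It was found for 10 of 34 amino acid response genes (29.4%) and 6 of 14 cytosolic tRNA synthetase genes (42.9%). Those of them that were called lower, such as ASNS and CARS1, also count in the 5.27%, so these shares are not independent. In the further lists searched, it stood in 0 of 12 serine, glycine and one-carbon genes and 0 of 18 cholesterol genes. Among cytosolic chaperones, a list with more rises than falls, 2 of 19 held it (10.5%). Such a match of letters is a description and not a bound site. The windows of 4 genes that fell and hold it, and of the 2 largest fallers of the list without it, are given here from 230 bases before to 20 after the start, 5′ to 3′ on the gene's strand. Capitals mark the element on either strand.

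CEBPG, chr19:33373883-33374132, plus strand: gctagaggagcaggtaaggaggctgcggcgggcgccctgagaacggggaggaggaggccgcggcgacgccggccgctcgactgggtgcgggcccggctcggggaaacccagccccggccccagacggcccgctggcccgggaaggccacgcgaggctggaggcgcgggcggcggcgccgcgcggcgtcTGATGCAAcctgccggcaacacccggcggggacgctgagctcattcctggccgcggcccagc
SLC7A1, chr13:29595669-29595918, minus strand: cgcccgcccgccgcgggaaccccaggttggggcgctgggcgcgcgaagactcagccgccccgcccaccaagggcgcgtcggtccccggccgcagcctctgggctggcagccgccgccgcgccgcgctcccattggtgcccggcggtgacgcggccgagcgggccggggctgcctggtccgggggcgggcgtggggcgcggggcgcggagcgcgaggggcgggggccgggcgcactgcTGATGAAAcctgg
CHAC1, chr15:40953241-40953490, plus strand: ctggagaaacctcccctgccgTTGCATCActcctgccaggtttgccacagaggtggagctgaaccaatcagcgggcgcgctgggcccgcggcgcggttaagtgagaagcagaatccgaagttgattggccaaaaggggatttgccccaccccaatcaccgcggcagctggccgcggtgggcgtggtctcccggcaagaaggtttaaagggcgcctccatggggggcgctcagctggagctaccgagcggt
ASNS, chr7:97872389-97872638, minus strand: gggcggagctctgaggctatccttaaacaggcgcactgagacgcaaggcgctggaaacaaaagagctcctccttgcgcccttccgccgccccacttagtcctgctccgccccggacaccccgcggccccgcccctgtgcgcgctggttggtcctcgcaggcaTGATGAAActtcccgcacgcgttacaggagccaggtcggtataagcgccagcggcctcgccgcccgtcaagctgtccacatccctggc
TRIB3, chr20:381065-381314, plus strand: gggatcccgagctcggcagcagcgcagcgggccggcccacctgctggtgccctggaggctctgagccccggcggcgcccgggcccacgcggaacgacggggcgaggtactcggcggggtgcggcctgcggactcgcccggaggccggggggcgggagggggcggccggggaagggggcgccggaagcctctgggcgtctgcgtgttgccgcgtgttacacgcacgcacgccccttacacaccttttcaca
MTHFD2, chr2:74198385-74198634, plus strand: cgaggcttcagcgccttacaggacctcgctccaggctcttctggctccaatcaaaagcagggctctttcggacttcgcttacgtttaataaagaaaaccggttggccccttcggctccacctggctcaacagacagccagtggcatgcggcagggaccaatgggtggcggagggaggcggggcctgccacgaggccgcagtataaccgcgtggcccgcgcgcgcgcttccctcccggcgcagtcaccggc

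Counted from the start, the element begins at -42 in CEBPG, -68 in ASNS, 8 in SLC7A1 and -209 in CHAC1, where it is read on the opposite strand (TTGCATCA). CHAC1, a glutathione-degrading enzyme, read 1390 and 1134 at 0 min and 907 and 608 at 480 min (-0.71 ± 0.11, adjusted p = 0.00047). TRIB3 and MTHFD2, with no such letters in their windows, fell further than these 4 genes. CHAC1, SLC7A1 and ASNS were not called without the experiment as a term (adjusted p = 0.078, 0.064 and 0.053). Of 4 other elements searched in the same way, the CCAAT box bound by NF-Y stood in 61.8% of the amino acid response genes and 44.3% of all genes. The ATF/CRE core TGACGTCA stood in 5.88% and 3.9%, the E-box CACGTG in 14.7% and 12.9%, and the sterol element core TCACNCCA in 2.94% and 5.16%. None of the 5 elements contains another, and matches of different elements can overlap in a window.

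Of the 42 measured genes of the amino acid response list, 26 were called lower and 0 higher, with a median change of -0.43 against -0.03 over all genes. In the same direction in both experiments, 37 of the 42 were lower and 2 higher. The first experiment alone gave a median of -0.35 and the second -0.57. Leaving out single arrays gave 23 to 26 calls, and the fit without the experiment 8. Among the targets, STC2, a secreted glycoprotein of stressed cells, read 739 and 952 and then 315 and 374 (-1.02 ± 0.12, adjusted p = 0.0001). NUPR1, a small stress-induced chromatin protein, read 1344 and 3077 and then 1078 and 1454 (-0.74 ± 0.11, adjusted p = 0.00068), so that its first-experiment value at 0 min lay below the second-experiment value at 480 min. VEGFA, the angiogenic growth factor, fell by 0.91 at its brightest probe set, while its 3 other probe sets gave -0.14, -0.25 and -0.35, of which the last was called. DDIT4, an inhibitor of mTORC1, fell by 0.63 (adjusted p = 0.033). None of these 4 genes was called without the experiment as a term, with an adjusted p of 0.14 for STC2, 0.55 for NUPR1, 0.32 for VEGFA and 0.19 for DDIT4. ATF3, another stress transcription factor, read 535 and 924 and then 475 and 456, a change of -0.49 ± 0.21 that did not pass (adjusted p = 0.12). GDF15, a secreted stress hormone, read 977 and 1547 and then 1054 and 1071, and was not called (-0.26 ± 0.19, adjusted p = 0.36).

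Many genes for charging tRNAs with amino acids were also called lower. Of 17 cytosolic tRNA synthetase genes, 11 were called lower and 1 higher, with a median of -0.36. The fit without the experiment called 6, and leaving out single arrays gave 8 to 10 lower. CARS1, for cysteine, read 3523 and 4146 and then 2114 and 2276 (-0.87 ± 0.06, adjusted p = 5.1e-07). AARS1, for alanine, read 2559 and 2930 and then 1520 and 1840 (-0.77 ± 0.05, adjusted p = 5.5e-07). The synthetases for tyrosine (YARS1, -0.81), serine (SARS1, -0.80), glycine (GARS1, -0.78) and threonine (TARS1, -0.62) also fell. No array of these 6 genes at 480 min reached either array at 0 min. The synthetase for leucine, LARS1, read 887 and 996 and then 885 and 962 and was not called (-0.08 ± 0.07, adjusted p = 0.48). RARS1, for arginine, was the called rise, at 0.28 ± 0.06 (adjusted p = 0.0051), from 1414 and 1332 to 1865 and 1786. SARS1, GARS1 and RARS1 were not called without the experiment as a term (adjusted p = 0.064, 0.31 and 0.092).

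Several serine and folate enzymes of the amino acid response also fell. MTHFD2, a mitochondrial folate enzyme, read 2667 and 2647 at 0 min and 1454 and 1146 at 480 min (-1.06 ± 0.11, adjusted p = 1.8e-05). SHMT2, which makes glycine from serine in mitochondria, read 4388 and 5648 and then 3010 and 3047 (-0.80 ± 0.09, adjusted p = 4.2e-05). PHGDH and PSAT1, the first enzymes of serine synthesis, fell by 0.63 and 0.79. PSPH, the last enzyme of that route, was not called (0.11 ± 0.08, adjusted p = 0.42). In the list of serine, glycine and one-carbon enzymes, 6 of 15 were called lower and 1 higher, GCSH, a protein of glycine cleavage (0.29). ASNS, asparagine synthetase, read 1529 and 2015 and then 1113 and 1072, a fall of 0.71 (-0.71 ± 0.11, adjusted p = 0.0005). PCK2, the mitochondrial PEP carboxykinase, fell by 0.57 (adjusted p = 0.00083). GCSH and PCK2 were not called without the experiment as a term (adjusted p = 0.11 and 0.24).

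Among 22 amino acid transporters, 5 were called lower and 0 higher, and the list's median was -0.07. SLC7A11, the cystine importer, read 657 and 919 and then 415 and 365 (-0.79 ± 0.13, adjusted p = 0.00097). SLC7A1, a carrier of cationic amino acids, read 1804 and 2191 and then 1110 and 1281 (-0.76 ± 0.06, adjusted p = 3.3e-06), but its 4 other probe sets ranged from -0.34 to 0.16 and 1 of them was called. SLC3A2, the heavy chain shared by several carriers, fell by 0.38, SLC1A5, a glutamine carrier, by 0.30 and SLC1A4 by 0.20. SLC7A5, the light chain of the main leucine carrier, read 2107 and 3001 and then 1360 and 4145, down in the first experiment and up in the second, and was not called (-0.17 ± 0.21, adjusted p = 0.6). All 5 called carriers belong also to the amino acid response list, so their counts are not independent. None of the 5 was called without the experiment as a term, with an adjusted p of 0.10 for SLC7A11, 0.064 for SLC7A1, 0.20 for SLC3A2, 0.35 for SLC1A5 and 0.13 for SLC1A4.

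Some other stress and metabolic genes were also among the largest falls. TXNIP, which binds thioredoxin and limits glucose uptake, read 2772 and 3797 and then 1870 and 2148 (-0.77 ± 0.10, adjusted p = 0.0002), and its 2 other probe sets gave -0.70 and -0.79. CAMTA2, a calmodulin-binding transcription activator, read 1255 and 2135 and then 600 and 845 (-1.11 ± 0.10, adjusted p = 5.5e-06). GFPT1, the entry enzyme of hexosamine synthesis, fell by 0.64 (adjusted p = 0.00037), while UAP1, further along that route, rose by 0.57 (adjusted p = 0.00048). Of 28 endoplasmic reticulum stress genes, 4 were called lower (14.3%, against 7.22% of all genes) and 1 higher (3.57%, against 7.71%). The list's median was -0.01, against -0.03 over all genes. Those lower included HERPUD1 (-0.61), XBP1 (-0.48) and SEL1L (-0.39), and the 1 higher was MANF (0.29). The 2 other probe sets of SEL1L gave -0.07 each. HSPA5, the main chaperone of that compartment, read 3793 and 4391 and then 3844 and 3544 and was not called (-0.25 ± 0.08, adjusted p = 0.055). CAMTA2, UAP1, HERPUD1, SEL1L and MANF were not called without the experiment as a term (adjusted p = 0.10, 0.18, 0.072, 0.17 and 0.15).

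Of 24 mitochondrial chaperones and import genes, 6 were called lower (25.0%, against 7.22% of all genes) and 2 higher (8.33%, near the 7.71% of all genes). HSPA9, the mitochondrial HSP70, read 3232 and 3326 and then 2343 and 2353 (-0.57 ± 0.07, adjusted p = 8.8e-05). Its other probe sets gave -0.54 and -0.14. TIMM9, a small carrier chaperone, fell by 0.52, and LONP1, a protease, by 0.40. HSPE1, the HSP10 co-chaperonin, read 1408 and 1309 and then 2269 and 2068 (0.52 ± 0.08, adjusted p = 0.00038), and TIMM17A, an import channel subunit, rose by 0.54. LONP1 and HSPE1 were not called without the experiment as a term (adjusted p = 0.11 and 0.32).

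**Figure D2:**
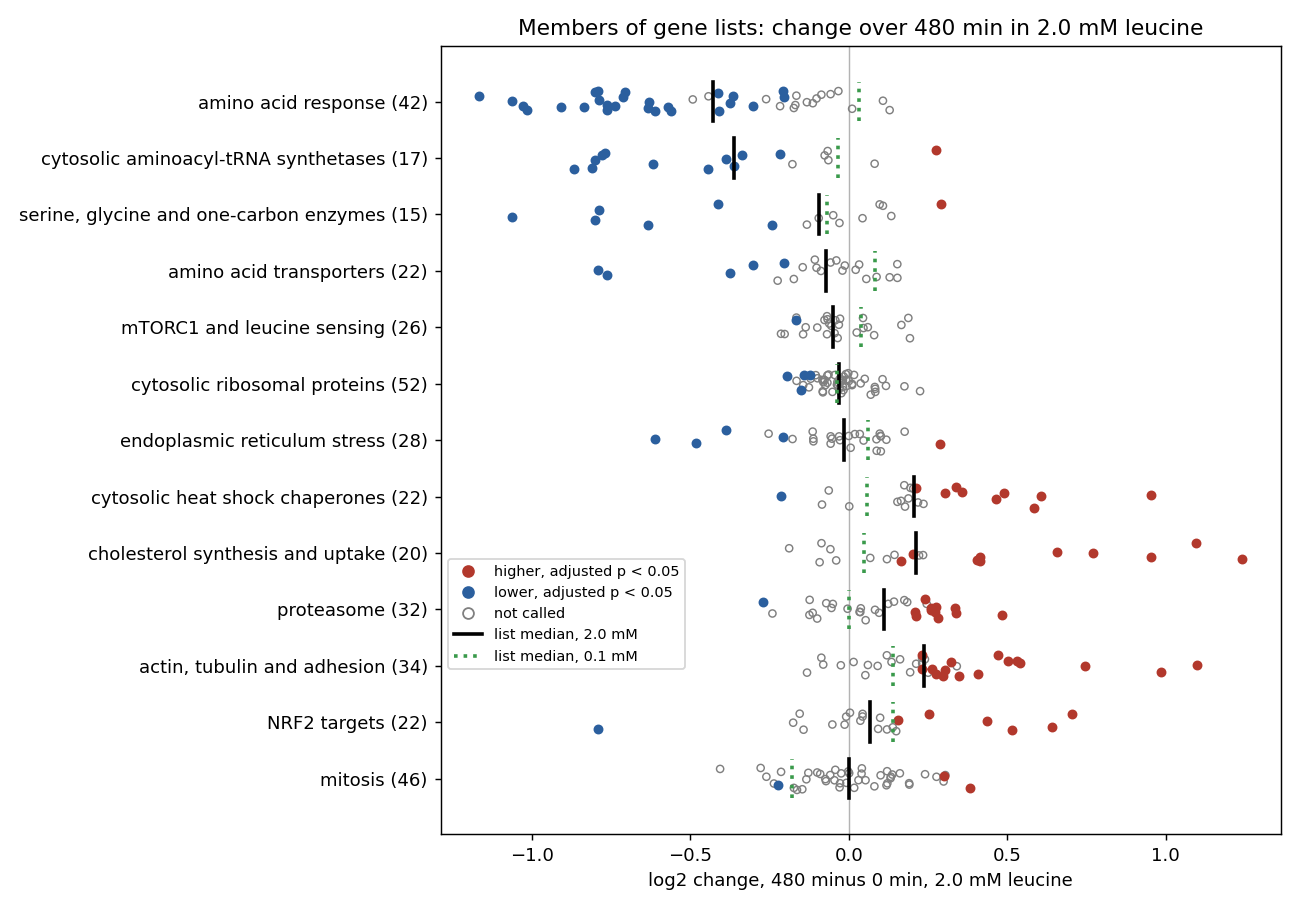
Log2 change from 0 to 480 min in 2.0 mM leucine (horizontal axis) of each measured member of 13 gene lists, with the number of members in brackets; red and blue points are called higher and lower, open points are not called, and vertical offsets only separate points. Black bars are the list medians in 2.0 mM leucine and dotted green bars those in 0.1 mM, which for the amino acid response lie at -0.43 and 0.03.

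The largest called rise was that of a sterol enzyme. MSMO1, which removes methyl groups from lanosterol-derived sterols, read 858 and 671 at 0 min and 2334 and 1884 at 480 min (1.24 ± 0.08, 2.36-fold, adjusted p = 5.1e-07). SQLE, squalene epoxidase, read 989 and 870 and then 1877 and 2261 (0.95 ± 0.08, adjusted p = 4e-06), with 0.50 and 0.37 at its 2 other probe sets. IDI1, an isomerase of the isoprenoid route, read 1128 and 1118 and then 2226 and 2108 (0.77 ± 0.06, adjusted p = 3.2e-06). INSIG1, which holds SREBP proteins back when sterols are high, read 752 and 295 and then 1455 and 1071 (1.10 ± 0.16, adjusted p = 0.00041). Within each experiment INSIG1 was higher at 480 min by 0.77 and 1.42, but the experiments differed so much in level that the fit without the experiment gave an adjusted p of 0.58.

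Of 20 measured genes of cholesterol synthesis and uptake, 10 were called higher and 0 lower, with a median of 0.21. DHCR7, the last enzyme of the route, rose by 0.66, and LSS, EBP and NSDHL, which act between squalene and cholesterol, by 0.41 each. The regulator SREBF2 rose by 0.17. The early enzymes MVK, PMVK and MVD were not called, at -0.19, -0.09 and -0.04. Without the experiment as a term 5 were called. Of the 18 genes with a promoter window, 16 held CCAAT (88.9%, against 44.3% of all genes) and 3 the sterol element core TCACNCCA (16.7%, against 5.16%). Of 15 fatty acid synthesis genes, 4 were called higher: FADS2, a desaturase (0.65), FASN, fatty acid synthase (0.42), ACLY, which makes cytosolic acetyl-CoA (0.26), and SREBF1 (0.25). The 2 other probe sets of ACLY gave 0.06 and 0.28 and were not called. LSS, EBP, SREBF2 and the 4 fatty acid synthesis genes were not called without the experiment as a term, with adjusted p from 0.24 (ACLY) to 0.70 (SREBF2).

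Of 22 cytosolic chaperones, 9 were called higher and 1 lower, with a median of 0.21. HSPB1, the small heat shock protein HSP27, read 1149 and 1090 and then 2433 and 2487 (0.95 ± 0.09, adjusted p = 6.5e-06). HSPH1, an exchange factor of HSP70, read 1713 and 1616 and then 2744 and 2920 (0.61 ± 0.08, adjusted p = 0.00012). DNAJB1, the HSP40 co-chaperone, read 1184 and 1343 and then 1992 and 2259 (0.58 ± 0.11, adjusted p = 0.0028). HSP90AA1, the inducible HSP90, rose by 0.21, and HSPA2 by 0.49. The called fall was DNAJA4 (-0.22), and on the values as deposited 13 were called higher and 0 lower. Leaving out the second-experiment array at either time left 5 rises, and the fit without the experiment 4, in which DNAJB1, HSP90AA1 and DNAJA4 were not called (adjusted p = 0.11, 0.14 and 0.31).

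Of 32 proteasome genes, 11 were called higher and 1 lower, with a median of 0.11. PSMD12, a lid subunit, read 1199 and 1046 and then 1702 and 1785 (0.48 ± 0.08, adjusted p = 0.0012). PSMD11 and PSMD14 rose by 0.34 and 0.33, and PSMD4, a ubiquitin receptor, fell by 0.27. On the values as deposited 17 were called higher and 0 lower. Without the experiment as a term 0 of the 32 were called. Without the second-experiment array at 480 min 3 were called higher, and without that at 0 min 5.

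Of 34 cytoskeletal genes, 16 were called higher and 0 lower, with a median of 0.24. TUBB2A, a beta-tubulin, read 629 and 620 and then 1230 and 2008 (1.10 ± 0.15, adjusted p = 0.0002). TUBA1A, an alpha-tubulin, read 921 and 914 and then 1527 and 1967 (0.74 ± 0.08, adjusted p = 5.7e-05). FSCN1, the actin-bundling fascin, read 906 and 1122 and then 2066 and 2519 (0.99 ± 0.13, adjusted p = 0.00015). For all 3 the lowest array at 480 min lay above the highest at 0 min. ACTN1, an actin crosslinker, rose by 0.54 and beta-actin, ACTB, by 0.23. Without either second-experiment array 9 were called, and the fit without the experiment called 7, in which TUBB2A and ACTN1 were not called (adjusted p = 0.054 and 0.31).

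Several other large rises belong to secreted, matrix and signalling genes. DKK1, a secreted Wnt inhibitor, read 623 and 689 and then 1196 and 2167 (1.08 ± 0.13, adjusted p = 8.1e-05). PHLDA2, an imprinted growth-restraining gene, read 817 and 588 and then 1803 and 1440 (1.0 ± 0.09, adjusted p = 3.8e-06), but without the experiment as a term it was not called (adjusted p = 0.079). LOXL1, a crosslinker of elastin, rose by 0.96, NR2F1, an orphan nuclear receptor, by 0.84 and TGFBR2, a TGF-beta receptor, by 0.66. In the list of TGF-beta and matrix genes, however, 4 of 36 were called higher (11.1%, against 7.71% of all genes). Another 3 were called lower (8.33%, near the 7.22% of all genes), and the list's median was -0.01. CCN2, a matrix protein induced by serum and YAP, had the largest change of all genes at 1.34 ± 0.47, from 410 and 599 to 1370 and 1739, and did not pass (adjusted p = 0.064). SFPQ, a splicing factor, rose by 0.75 at its brightest probe set, and its 3 others gave 0.65, 0.12 and -0.26.

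CAPN1, the protease calpain 1, was called at 0.78 ± 0.22 (adjusted p = 0.027), with 653 and 588 at 0 min and 1969 and 727 at 480 min. Its 2 experiments gave 1.33 and 0.23. The 0.1 mM array at 0 min of the first experiment read 1754, so that the 2 first-experiment arrays at 0 min differed. CAPN1 was not called without the experiment as a term (adjusted p = 0.79).

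Of 26 genes of mTORC1 and leucine sensing, 1 was called lower (3.85%, against 7.22% of all genes), SEC13, which also coats secretory vesicles (-0.17), and 0 higher. Of 19 genes of branched-chain amino acid breakdown, 2 were called lower (10.5%), AUH (-0.55), an enzyme of leucine breakdown, and DLD (-0.27), a subunit of several dehydrogenase complexes. None of these 3 genes was called without the experiment as a term (adjusted p = 0.48, 0.073 and 0.34). The transaminases BCAT1 and BCAT2, which start that route, were not called (0.02 ± 0.08 and 0.15 ± 0.07, adjusted p = 0.87 and 0.17). BCAT1 read 1127 and 524 at 0 min and 1099 and 602 at 480 min, so its arrays of the 2 times overlapped.

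Cytosolic ribosomal protein genes had a median of -0.03, as had all genes. Of these 52 genes, 4 were called lower (7.69%, near the 7.22% of all genes) and 0 higher. The direction of the calls depended on the scaling. On the values as deposited 0 were called lower and 5 higher, and with median centring 0 and 7. Of 40 translation factors, 6 were called lower (15.0%, against 7.22% of all genes) and 4 higher (10%, against 7.71%). EIF3A, the largest eIF3 subunit, fell by 0.51, though its 2 other probe sets gave -0.17 and -0.07 and were not called. EIF4E, the cap-binding protein, read 1430 and 823 and then 2238 and 1780 (0.71 ± 0.10, adjusted p = 0.00037), and its other probe set gave 0.81. Neither EIF3A nor EIF4E was called without the experiment as a term (adjusted p = 0.32 and 0.41).

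Of 46 DNA replication genes, 9 were called lower (19.6%, against 7.22% of all genes) and 4 higher (8.70%, near the 7.71% of all genes). Leaving out single arrays gave 3 to 6 lower. PRIM1, a primase subunit, fell by 0.58 (1721 and 1295 to 1279 and 794, adjusted p = 0.00023) and MCM7, of the replicative helicase, by 0.47. PCNA, the sliding clamp, read 2647 and 2480 and then 3854 and 4057 (0.48 ± 0.07, adjusted p = 0.00036). On the values as deposited and with median centring the list had 6 calls each way. Of 46 mitosis genes, 2 were called higher (4.35%), CCNA2, a cyclin (0.38), and CKS2, a kinase subunit (0.30), and 1 lower (2.17%), ESPL1, the separase (-0.22). Both shares lie below those of all genes. The other probe sets of CCNA2 (0.26) and ESPL1 (-0.14) were not called (adjusted p = 0.15 and 0.14). PRIM1, PCNA, CCNA2, CKS2 and ESPL1 were not called without the experiment as a term (adjusted p = 0.39, 0.056, 0.55, 0.16 and 0.24).

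The same interval was also measured in 0.1 mM leucine. Since 0.1 mM is itself a leucine level of the series, effects of that level cannot be told apart from those of time in culture and handling. There 18 of 8280 genes were called (0.217%), with 1303 genes at an unadjusted p under 0.05, and 10 of the 18 were also among the 1236. The changes of the 2 experiments had the same sign for 55.2% of genes in 0.1 mM and 66.7% in 2.0 mM. The 1236 called genes were chosen on the 2.0 mM arrays, and in 0.1 mM their median change was 0.05 for the rises and -0.03 for the falls. The 2 changes share no array, and the test of their difference called 308 genes (3.72%), 204 with the higher change in 2.0 mM leucine (2.46%) and 104 with the lower (1.26%). Of the 308, 249 were also called within 2.0 mM, as were 14.9% of all genes. The difference contains the change within 2.0 mM, so the 2 tests are not independent. Without the experiment as a term this test of the difference called 0 probe sets by limma, with 1038 at an unadjusted p under 0.05. With the experiment it called 509, split into 358 higher and 151 lower, which became 587 and 105 on the values as deposited and 610 and 101 with median centring. The count was 190 without the second-experiment 0.1 mM array at 0 min. Leaving out the first-experiment 2.0 mM array at 0 min gave 268, the second-experiment 2.0 mM array at 480 min 221, and the second-experiment 0.1 mM array at 480 min 238.

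The change of amino acid response genes differed from that in 0.1 mM leucine for 20 of 42, all lower in 2.0 mM. Of all genes, 1.26% had a called lower difference. ATF4 read 5381 and 4671 at 0 min and 5281 and 4846 at 480 min in 0.1 mM, a change of 0.01, and the difference was -1.04 (adjusted p = 8.2e-05). TRIB3 read 2099 and 3674 and then 2376 and 3906 in 0.1 mM, and its difference was -1.28 (adjusted p = 0.00076). SLC7A11 read 695 and 1090 and then 1217 and 1253 in 0.1 mM (0.42, not called), and its difference was -1.22 (adjusted p = 0.0029). For ASNS, which changed by -0.37 in 0.1 mM (adjusted p = 0.12), the difference of -0.34 did not pass (adjusted p = 0.22), nor did that of TXNIP at its brightest probe set (-0.52, adjusted p = 0.056), while its other probe sets gave -0.54 and -0.67 and were called. SQSTM1, an autophagy receptor, was called in the difference (-0.42, adjusted p = 0.039) with -0.10 in 2.0 mM and 0.32 in 0.1 mM. Of the 17 tRNA synthetases, 6 had a lower change in 2.0 mM and 1, RARS1, a higher one.

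**Figure D3:**
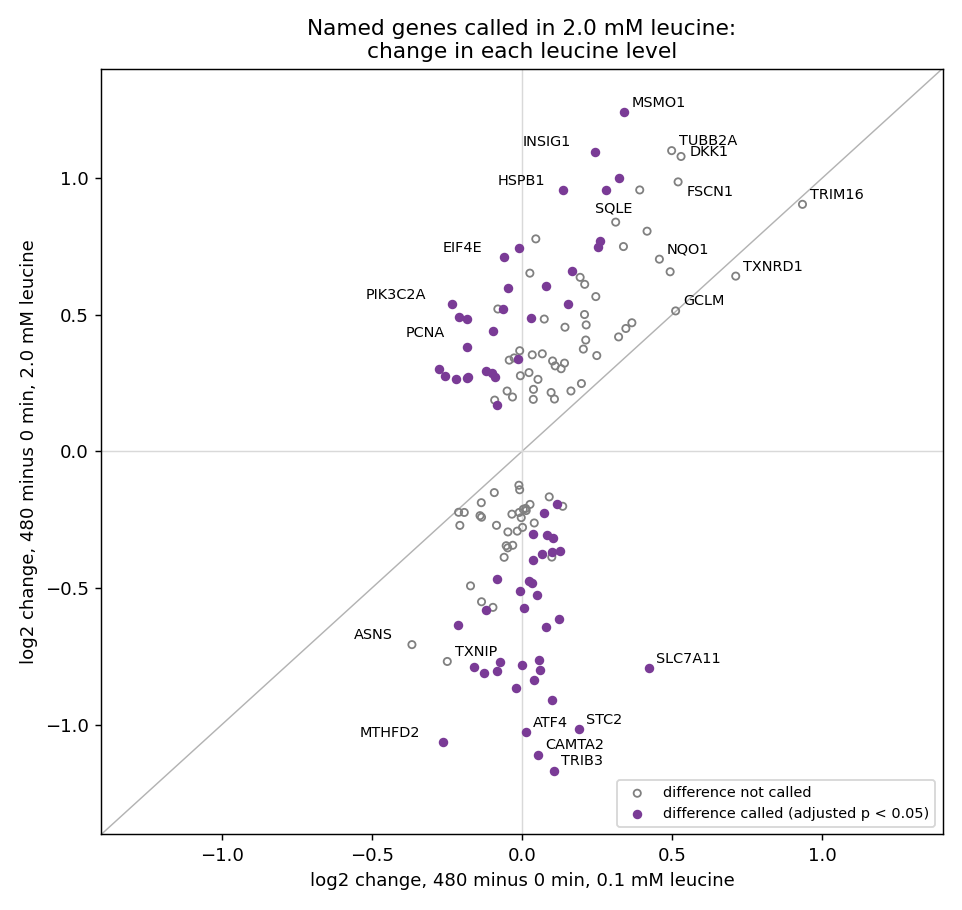
Log2 change from 0 to 480 min in 0.1 mM (horizontal axis) and 2.0 mM leucine (vertical axis) of the 147 named genes called in 2.0 mM; each point is 1 gene, filled where the difference between the levels was called (65 genes), and the diagonal marks equal change. ATF4, at 0.01 and -1.03, lies far below the diagonal, while TRIM16, at 0.93 and 0.90, lies on it.

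Among the rises, the difference was called for 7 of 20 cholesterol genes, 3 of 22 chaperones and 4 of 32 proteasome genes. It was called for 1 of 34 cytoskeletal genes, TUBA1A, a share near the 2.46% of all genes with a called higher change. MSMO1 read 1034 and 852 and then 1224 and 1251 in 0.1 mM, and the difference was 0.90 (adjusted p = 0.0013). HSPB1 read 1272 and 986 and then 1371 and 1143, with a difference of 0.82 (adjusted p = 0.0028). TUBB2A read 656 and 637 and then 800 and 1190 in 0.1 mM, and its difference of 0.60 did not pass (adjusted p = 0.12). The median of the cytoskeletal list was 0.14 in 0.1 mM and 0.24 in 2.0 mM.

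Several antioxidant genes driven by NRF2 rose in both media. TXNRD1, thioredoxin reductase, read 3064 and 3394 and then 5281 and 5983 in 2.0 mM (0.64 ± 0.06, adjusted p = 1.1e-05) and 3450 and 3778 and then 5679 and 6647 in 0.1 mM (0.71, adjusted p = 7.6e-05). GCLM, of glutathione synthesis, rose by 0.51 in each, and NQO1, a quinone reductase, by 0.70 and 0.46. TRIM16, a ubiquitin ligase outside this list, rose by 0.90 and 0.93. The differences for these 4 genes were -0.07, 0.00, 0.25 and -0.03, and none passed (adjusted p = 0.69, 0.99, 0.22 and 0.94). Of the 22 NRF2 targets, 6 were called higher in 2.0 mM (27.3%, against 7.71% of all genes). In 0.1 mM 3 of the 22 were called higher, against 11 of 8280 genes. SLC7A11, counted on this list too, was the 1 called lower in 2.0 mM. Without the experiment as a term, GCLM was not called in 2.0 mM (adjusted p = 0.11).

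Mitosis genes had a median change of 0.00 in 2.0 mM and -0.18 in 0.1 mM. The difference was called for 6 of 46, all higher in 2.0 mM, against 2.46% of all genes with a called higher difference. Taken apart by experiment, the median in 2.0 mM came to 0.12 (first) and -0.10 (second), and it was 0.12 without the second-experiment array at 480 min and -0.08 without the first-experiment one. ECT2, a regulator of cell division, read 1108 and 402 and then 1386 and 581 in 2.0 mM and 1162 and 732 and then 1115 and 358 in 0.1 mM (difference 0.73, adjusted p = 0.035). Its change within 2.0 mM was not called (0.30 ± 0.13, adjusted p = 0.12). KPNA2, a nuclear import receptor, had a difference of 0.70 and PIK3C2A, a lipid kinase, one of 0.77, with changes of -0.21 and -0.23 in 0.1 mM and 0.49 and 0.54 in 2.0 mM, of which that of KPNA2 was not called without the experiment as a term (adjusted p = 0.060). For CDK4, a G1 kinase, the difference was -0.31 (adjusted p = 0.024).

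**Figure D4:**
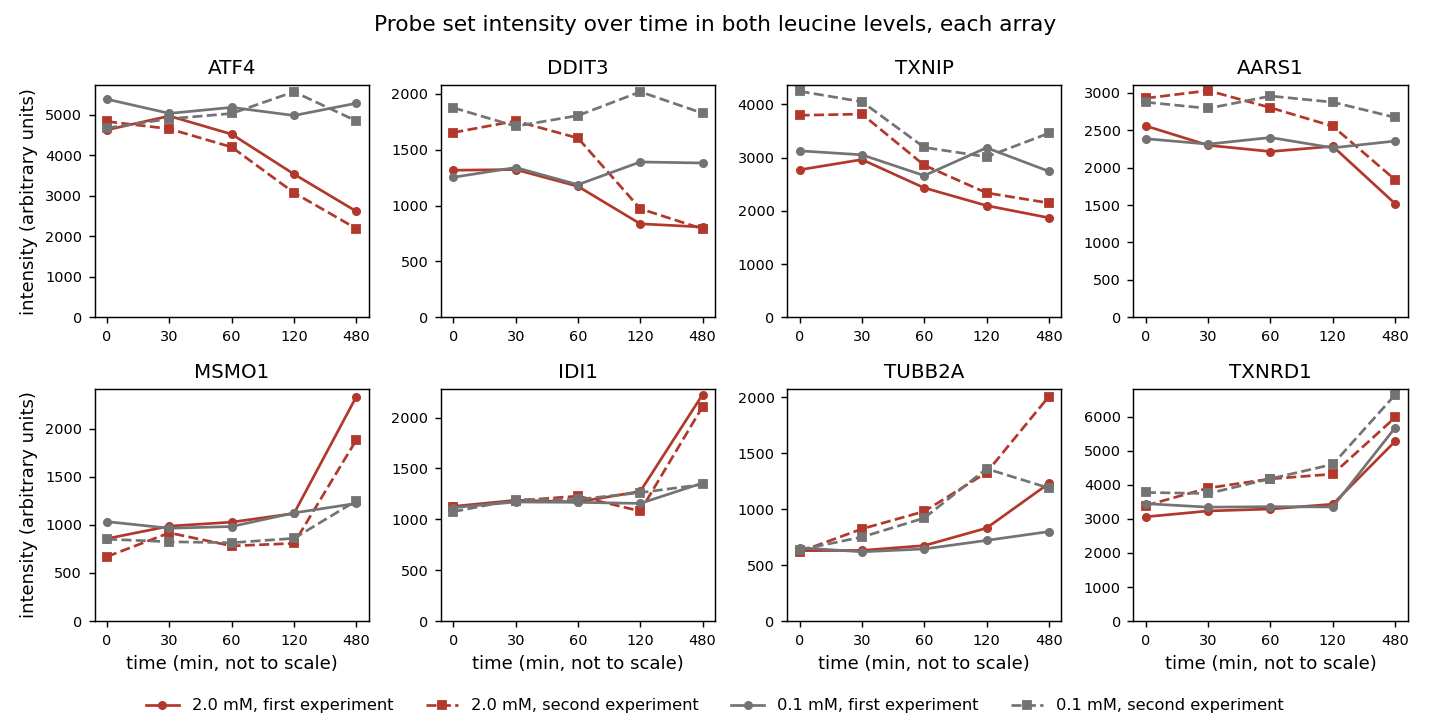
Deposited probe set intensity (vertical axis, arbitrary units, from 0) at 0, 30, 60, 120 and 480 min (horizontal axis, not to scale) for 8 genes; red lines are 2.0 mM and grey lines 0.1 mM leucine, solid for the first and dashed for the second experiment. ATF4 and DDIT3 are lower in 2.0 mM from 120 min on, MSMO1 and IDI1 are highest at 480 min in 2.0 mM, and TXNRD1 is higher at 480 min in both media.

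The arrays between the ends order these changes in time, given here as values with no test. The change of ATF4 from 0 min in 2.0 mM was -0.05, -0.19, -0.55 and -1.03 at 30, 60, 120 and 480 min. DDIT3 gave -0.04, -0.18, -0.67 and -0.84, and TXNIP -0.04, -0.39, -0.58 and -0.77. These 3 genes had made most of their fall by 120 min. TRIB3, by contrast, gave -0.02, 0.05, -0.20 and -1.17, and MTHFD2 0.07, -0.15, -0.19 and -1.06. The median of the amino acid response list was 0.01, 0.06, -0.12 and -0.43. Sterol genes came late, with 0.01, 0.02, 0.02 and 0.77 for IDI1 and 0.13, 0.05, 0.11 and 0.95 for SQLE. HSPB1 gave -0.02, 0.07, 0.19 and 0.95. TUBB2A differed from these with a gradual 0.15, 0.29, 0.63 and 1.10, beside 0.06, 0.23, 0.51 and 0.50 in 0.1 mM. CCN2 was already at 0.76, 1.31 and 1.41 before 480 min, and at 0.93, 1.46 and 1.66 in 0.1 mM. Of 33 immediate early genes, 2 were called higher at 480 min (6.06%, below the 7.71% of all genes), JUND (0.45) and ZFP36L2 (0.37). ZFP36L2 was not called without the experiment as a term (adjusted p = 0.41). The list's median was 0.17 in each medium, but that in 2.0 mM became 0.43 and -0.07 without the first- and the second-experiment array at 0 min, and -0.02 and 0.31 without those at 480 min.

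Since every change rests on 2 arrays at 0 min, the 480 min arrays were also set against the other 0 min arrays. At 0 min, 77 probe sets were called between 2.0 and 0.1 mM leucine, 66 of them lower in 2.0 mM. The called rises had a median of -0.08 for 2.0 minus 0.1 mM at 0 min and the called falls 0.10, and what part this has in the calls was not tested. Against the mean of all 4 arrays at 0 min, 1995 probe sets were called, 1496 of them among the 2032. Against the 0.1 mM arrays alone, 1348 were called, and 848 were shared. Under this last baseline the median of the amino acid response genes was -0.42 with 22 calls, all lower, and the cholesterol list 0.20 with 10 calls, all higher. The change of CAPN1 under it was 0.20.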

How the data were processed

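Total RNA of 20 samples was measured on Affymetrix HG-U133 arrays of the A design, which read a gene through 1 or more probe sets. The authors deposited linear probe set intensity values for 22215 probe sets; neither the labels nor the file say how these were summarised and scaled. The number of arrays limits the precision. To each value 165.2 was added as a pseudocount (each array's 10th percentile, then the median), log2 was taken and the arrays were quantile normalized. Probe sets at or above the 40th percentile of the mean were kept, which left 13329 and 8280 genes. Per the deposited platform annotation, 19065 probe sets had 1 gene symbol, 1043 several and 2107 none, and only the first were named.

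The limma package (3.58.1, R 4.3.3) fitted all 20 arrays with group means plus the experiment as a fixed term (9 residual degrees of freedom). Variances were moderated along the intensity trend, tests were two-sided, and p-values were adjusted by Benjamini-Hochberg over the 13329 probe sets. The labels give each array its experiment; whether that pairs separate cultures is not stated. The deviations of the 0 and 480 min arrays of the same experiment correlated at 0.826; with 2 arrays a group the 2 experiments mirror each other, so this is 1 value.

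Named genes were up to 16 largest called rises and 16 falls with 1 direction in both experiments, up to 4 members per list with the smallest p, up to 8 in each direction of the difference between leucine levels, and ATF4, TXNIP, TRIB3, ASNS, SLC7A5, SLC7A11, BCAT2, BCAT1, ATF3 and DDIT3 in any case. Other list members given in the text, such as LARS1, RARS1, GDF15, HSPA5, DNAJB1 and SQSTM1, were chosen after their values were seen. The comparison, lists and rules were chosen with earlier results of these data known. Lists are described by counts and medians with no test. Promoter sequences are from RefSeq (GRCh38.p14). The alternatives were other pseudocounts, scalings, filters, variance models, blocks, array subsets and baselines, 1 probe set per gene, and leaving out each array. The baseline of the 0.1 mM arrays at 0 min was added after the data were seen.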

Additional observations from a re-analysis of the deposited data

Results flagged for a closer look

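The change from 0 to 480 min differed between 2.0 and 0.1 mM leucine for 308 genes by the test of the difference itself. The 8 largest of the called differences towards a lower change in 2.0 mM were those of TRIB3 (-1.28), SLC7A11 (-1.22), STC2 (-1.21), CAMTA2 (-1.16), ATF4 (-1.04), VEGFA (-1.01), DDIT3 (-0.88) and SARS1 (-0.86), on the log2 scale. Among called differences, the 8 largest towards a higher change were those of MSMO1 (0.90), INSIG1 (0.85), HSPB1 (0.82), PIK3C2A (0.77), EIF4E (0.77), TUBA1A (0.76), ECT2 (0.73) and KPNA2 (0.70). Of these 16 genes, ECT2 alone was not called within 2.0 mM leucine. With 2 arrays a group, single arrays were not tested for lying apart.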

How the results depend on the processing

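With 2 arrays a group, the experiment as a replicate block decides most calls. For the change within 2.0 mM leucine, no replicate block gave 229 probe sets in place of 2032, array weights 1067, only the 10 arrays of 2.0 mM 1335, only the 4 arrays compared 44, the 0.1 mM baseline at 0 min 1348 and 1 probe set per gene 1250. Leaving out single arrays gave 745 to 1470. For the difference between leucine levels, no replicate block gave 0 probe sets by limma (1038 at an unadjusted p under 0.05) in place of 509, array weights 131, a replicate block that differs by time 969, only the 8 arrays at 0 and 480 min 42 and 1 probe set per gene 322. Leaving out single arrays gave 190 to 589. The test of 1 probe set per gene covers 8280 features in place of 13329; the causes of the other shifts were not tested. The pseudocounts, the filters, the variance without a trend, both scalings and the baseline of all 0 min arrays stayed within 1.5 times of the main counts where they were run.

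Single genes that reversed were RPL23A (0.0043 as deposited and 0.014 with median centring) and RPS10 (0.0023 and 0.012), and, against the 0.1 mM arrays at 0 min, SEH1L (-0.106), CXCL5 (-0.0800) and ECT2 (-0.0324). Leaving out single arrays gave -0.0811 to 0.123 for BCAT1, negative without either second-experiment array, and -0.490 to 0.143 for SLC7A5, positive without either first-experiment array. Neither was called in the fit on all arrays. Probe sets near background, whose changes the pseudocount shrinks, limit what can be seen.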
